A study of Homo sapiens with 18 samples.

Results

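Cells of the line labelled A549 were left untreated or were given 1 of 2 nanomaterials, and the genes described here are those whose RNA level lay on the same side of every control library under both materials. The 6 exposed input libraries, 3 given the nanomaterial labelled BPQD and 3 given TiO2, were set together against the 3 untreated ones. Levels are in FPKM (fragments per kilobase of transcript scaled to a fixed number of mapped fragments), and 12224 genes averaged 1 or more over the 9 libraries. Of these, 3578 had no overlap between the exposed and the control values. These genes are members because of that pattern, so the pattern itself is a description, and the test used below read the same 9 values.

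A549 is an established human lung adenocarcinoma line. The cells grew in DMEM/F-12 medium. The BPQD group received 10 mg/L and the TiO2 group 100 mg/L, both for 24 h, and the control group received neither. The doses differed between the materials, so a difference between the groups concerns these exposures as given. The labels do not spell out BPQD and do not say whether a group's 3 libraries are from different cultures. The p-values therefore describe only the scatter among these libraries, which may be technical. The series holds 18 libraries, and the other 9 are immunoprecipitates of RNA carrying N6-methyladenosine (m6A), the methyl mark on adenosine that the study set out to follow. The input libraries, labelled total RNA, were not put through that step.

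Several classes of RNA recur below. RNA polymerase III transcribes short noncoding RNAs that work inside RNA-protein machines: RNase P trims transfer RNA precursors, RNase MRP processes ribosomal RNA precursors, the 7SK particle holds the elongation kinase P-TEFb inactive, and the signal recognition particle brings nascent proteins to the endoplasmic reticulum. Ribosomal protein mRNAs usually begin with a run of pyrimidines that couples their translation to growth signalling, while initiation factors load ribosomes onto mRNAs. Chaperones fold proteins in the cytosol, and a related set, raised in the unfolded protein response, folds them in the endoplasmic reticulum.

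The labelled cell line was checked against its markers. The keratins KRT7 (206 to 311 FPKM), KRT8 (218 to 366) and KRT18 (403 to 582) and the oxidoreductase NQO1 (47.0 to 56.9) were present in all libraries. The aldo-keto reductases AKR1B10 (at most 0.998) and AKR1C2 (at most 0.139) and the aldehyde dehydrogenase ALDH1A1 (at most 0.116), which are usually abundant in A549, were not, and CDKN2A, a tumour suppressor deleted in A549, read 19.3 to 27.4 FPKM. These values go against the label, which is kept here as the name of the cells. Of 10 A549 markers, 6 had a mean of 1 FPKM or more. The summed level of all 10 was 1244 to 1330 FPKM in the controls, 923 to 949 under BPQD and 1029 to 1122 under TiO2. For 7 fibroblast markers the sums were 29.3 to 29.8, 13.9 to 24.8 and 27.9 to 37.7 in the same order, with COL1A2 and COL3A1 below 1 FPKM everywhere. For 5 leukocyte markers they were 11.2 to 13.2, 11.7 to 12.8 and 17.6 to 23.1, nearly all of it CD68, with PTPRC, CD3E and LYZ below 1 FPKM everywhere. For 4 endothelial markers they were 3.02 to 3.66, 1.19 to 1.35 and 2.15 to 3.92, with PECAM1, VWF and KDR below 1. For 7 lung epithelial markers they were 19.1 to 20.2, 15.8 to 17.1 and 15.3 to 15.9, with SFTPB, SFTPC, NKX2-1 and CDH1 below 1. The part of these marker levels in the results was not tested, and in bulk RNA fewer cells of a type and less RNA per cell cannot be told apart.

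The values are FPKM, so the depth behind them is unknown. Their sum over all genes was 222081 ± 652 (SD, n = 3) in the controls and 216565 ± 3302 (SD, n = 6) in the exposed libraries, with no overlap (exact permutation test over 84 relabelings, two-sided p = 0.0238, the smallest possible, adjusted over 4 such values 0.0476). It was 213571 ± 593 under BPQD and 219559 ± 110 under TiO2 (SD, n = 3 each). The part of this gap in the direction of single genes was not tested, and counts after rescaling every library to the same sum (TPM) are therefore printed beside the deposited scale. The summed share of the RNA polymerase III transcripts measured was 0.291% in the controls and 0.213% in the exposed libraries, also without overlap (exact permutation p = 0.0238, adjusted 0.0476). That list was chosen with earlier results of these data known, so its p is a description and not independent evidence. Abundant members weigh most in the summed share. Of the RNAs described below, BCYRN1 averaged 156 FPKM in the controls, RN7SK 37.4, RMRP 13.1 and RPPH1 8.78.

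Among the 12224 genes, limma on log2(FPKM + 1) called 5106 (41.8%) at an adjusted p under 0.05, 2346 higher (19.2%) and 2760 lower (22.6%) under exposure. The groups did not overlap in 1568 genes that were higher (12.8%) and in 2010 that were lower (16.4%). A gene is said below to have risen or fallen where it met both conditions, which 1507 (12.3%) did upward and 1897 (15.5%) downward. The changes were mostly small, with a median size of 0.25 on the log2 scale. Of the 3404 genes, 191 changed by 0.5 or more (48 up and 143 down) and 16 by 1 or more (1 up and 15 down). Folds on the log2(FPKM + 1) scale understate the change of genes with low values. Rises made up 44.3% of these genes as deposited, 54.8% after rescaling to TPM (1862 rises and 1535 falls) and 49.0% after centring each library on its median (1648 and 1712), so which direction is the more common depends on the scaling.

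The falls of 1 or more were led by short noncoding RNAs. RPPH1, the RNA of RNase P (ENSG00000277209, chromosome 14, 20343075 to 20343407), read 8.94, 8.74 and 8.66 FPKM in the controls, 0.557, 0.214 and 0.269 under BPQD and 0.915, 0.842 and 0.480 under TiO2. Every exposed library thus lay below 1 FPKM while every control lay above 8. The log2 change was -2.68 ± 0.10 (SE; limma adjusted p = 4.65e-06), and the exposed mean was 0.0622 of the control mean. RN7SK, the RNA of the 7SK particle (chromosome 6, 52995621 to 52995948), read 38.4, 41.3 and 32.3 in the controls, 3.85, 3.35 and 4.05 under BPQD and 9.71, 3.74 and 7.51 under TiO2. Its lowest control was above 3 times its highest exposed library, and its log2 change was -2.67 ± 0.23 (adjusted p = 0.000116). RMRP, the RNA of RNase MRP (chromosome 9, 35657754 to 35658017), read 10.5, 14.4 and 14.4 in the controls, 1.48, 1.38 and 1.35 under BPQD and 1.59, 1.33 and 2.53 under TiO2. This was a log2 change of -2.43 ± 0.15 (adjusted p = 2.39e-05). BCYRN1, a short cytoplasmic RNA also known as BC200 (chromosome 2, 47335315 to 47335514), read 173, 149 and 146 in the controls, 85.5, 117 and 59.3 under BPQD and 44.4, 55.3 and 49.8 under TiO2. The groups were apart but closer, with a log2 change of -1.25 ± 0.19 (adjusted p = 0.0015).

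The other polymerase III transcripts did not move that far. The list held 15 RNAs, of which 12 were in the table and 7 reached a mean of 1 FPKM. Of these 7, 4 fell, none rose and the median was -1.25, against -0.02 over all genes tested. The remaining members were the 3 copies of 7SL, the scaffold of the signal recognition particle. RN7SL1 read 138, 145 and 130 in the controls, 128, 128 and 132 under BPQD and 108, 107 and 112 under TiO2, so that the BPQD libraries overlapped the controls (-0.21 ± 0.04, adjusted p = 0.00279). RN7SL2 likewise overlapped, at -0.15 ± 0.02 (adjusted p = 0.00223), and RN7SL3 stood at -0.28 ± 0.29 (adjusted p = 0.491). The RN7SL copies are nearly identical in sequence, so how reads were shared among them is uncertain. All of these RNAs are shorter than most mRNAs, and how well the libraries held RNAs of this length, or whether they were made from polyadenylated RNA, is not given in the sources used here. Of 89 small nucleolar RNAs, another class of short RNA, 5 rose (5.62%) and 2 fell (2.25%), with a median of -0.02. The shares over all genes tested were 12.3% rising and 15.5% falling. The part of RNA length in the falls above was not tested.

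The protein partners of these RNAs showed changes in both directions and far smaller ones. Their counts stand beside the shares over all genes tested, 12.3% rising and 15.5% falling. Of 31 subunits and factors of RNA polymerase III, 7 rose and 1 fell, with a median of 0.01, and 3 fell without BPQD replicate 3. The gene that fell was MAF1, a repressor of the polymerase, which read 48.2, 45.3 and 43.5 in the controls, 31.2, 31.6 and 31.0 under BPQD and 38.6, 37.9 and 37.6 under TiO2 (-0.39 ± 0.03, adjusted p = 7.46e-05). SSB, the La protein that binds the 3′ ends of polymerase III transcripts, rose from 25.7 to 26.0 FPKM in the controls to between 33.6 and 37.7 in the exposed libraries (0.46 ± 0.04). POLR3F, a subunit of the enzyme, rose by 0.36 ± 0.05 and SNAPC1, part of the complex that recognises small nuclear RNA promoters, by 0.32 ± 0.04. Of 12 proteins of 7SK and P-TEFb, 1 rose and 3 fell, with a median of -0.01. MEPCE, which caps 7SK, fell by 0.40 on the log2 scale, and CDK9, the kinase of P-TEFb, fell by 0.36. HEXIM1, the inhibitor that 7SK presents to P-TEFb, fell from 41.0 to 42.9 FPKM in the controls to 28.8 to 30.2 under BPQD and 39.5 to 40.6 under TiO2. Its change of -0.28 ± 0.02 (adjusted p = 9.74e-05) was no longer called when the exposed libraries were fitted as 1 group. ELL2, an elongation factor, rose by 0.21 ± 0.02. Of 10 proteins of RNase P and RNase MRP, 2 fell, POP7 and RPP25, by 0.21 and 0.14, and both calls were lost with the exposed libraries as 1 group.

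**Figure D1:**
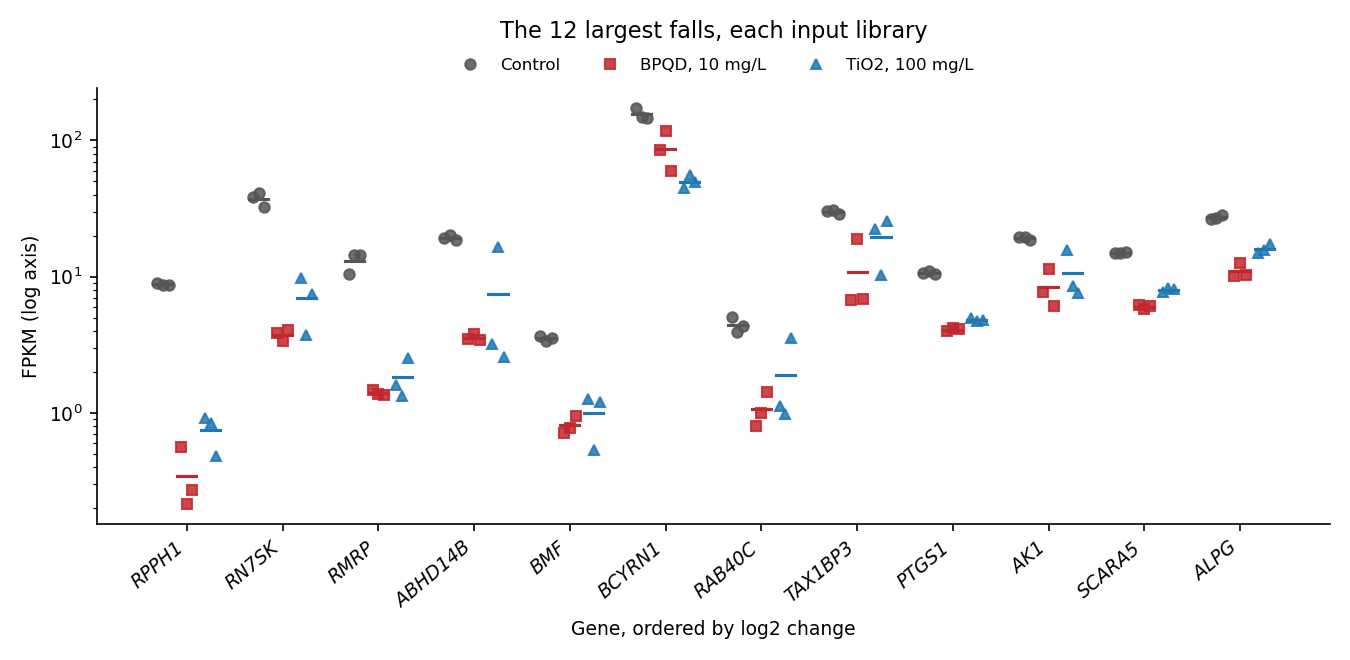
FPKM of the 12 genes with a symbol that fell most, 1 point per input library on a log axis, with a line at each group's mean (3 libraries per group; grey circles control, red squares BPQD, blue triangles TiO2). RPPH1 stands between 8.66 and 8.94 in the controls and at no more than 0.915 in any exposed library, while ABHD14B has 1 TiO2 library at 16.6, close to the controls.

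Of the 15 falls of 1 or more, 4 have no symbol in the tables used, and are given because of their size, after their values were seen. They are loci on the short arm of chromosome 21 that the file names FP236383 or FP671120. ENSG00000281181 (8437629 to 8438551) was the most abundant and read 1650, 1603 and 1637 FPKM in the controls, 684, 692 and 683 under BPQD and 767, 742 and 775 under TiO2. The log2 changes of the 4 lay between -1.14 and -1.18. This arm carries repeats of the ribosomal RNA genes, and the 4 loci may share reads as near-identical copies. RNA5-8SN2, a 5.8S ribosomal RNA gene on the same arm (8212572 to 8212724), fell as well, from 3.69, 3.02 and 3.23 FPKM in the controls to 2.25, 2.86 and 2.36 under BPQD and 2.02, 1.26 and 1.501 under TiO2. The log2 change was -0.52 ± 0.10 (limma adjusted p = 0.00505). Its copy RNA5-8SN3 was called at -0.54 ± 0.13 with groups that overlapped.

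The remaining large falls were of protein-coding genes. BMF, which encodes a pro-apoptotic member of the BCL2 family, read 3.66, 3.38 and 3.52 FPKM in the controls, 0.709, 0.772 and 0.948 under BPQD and 1.27, 0.538 and 1.19 under TiO2. Each exposed library was thus well below the lowest control, and the log2 change was -1.26 ± 0.12 (adjusted p = 0.000186). PTGS1, cyclooxygenase 1 of prostaglandin synthesis, read 10.6, 11.04 and 10.4 in the controls, 3.97, 4.19 and 4.10 under BPQD and 4.94, 4.76 and 4.77 under TiO2. The libraries of a group lay close together, and the change was -1.11 ± 0.03 (adjusted p = 6.82e-07). SCARA5, a scavenger receptor that takes up ferritin, fell from 14.8, 15.0 and 15.1 to 6.19, 5.80 and 6.11 under BPQD and 7.78, 8.22 and 8.05 under TiO2 (-1.0 ± 0.03). The neighbouring alkaline phosphatase genes ALPP, ALPG and ALPI on chromosome 2, whose products remove phosphate at the cell surface, all fell. ALPP read 334, 334 and 336 in the controls, 173, 175 and 177 under BPQD and 254, 245.2 and 252 under TiO2 (-0.67 ± 0.02, adjusted p = 3.88e-07), ALPG fell by 0.99 and ALPI by 0.83 on the log2 scale. These genes are closely similar, so the split of reads among them is uncertain.

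Other large falls rested on libraries that spread widely. ABHD14B, a serine hydrolase, read 19.1, 20.2 and 18.4 in the controls and 2.59 to 3.79 in 5 exposed libraries, but 16.6 in TiO2 replicate 2 (-1.90 ± 0.46, adjusted p = 0.0127). RAB40C, a small GTPase, stood between 0.796 and 1.43 in 5 exposed libraries and at 3.53 in TiO2 replicate 3, against 5.01, 3.93 and 4.37 in the controls (-1.21 ± 0.26). AK1, an adenylate kinase, read 19.6, 19.6 and 18.5 in the controls and from 6.08 to 15.7 under exposure (-1.01 ± 0.24). TAX1BP3, a PDZ-domain protein, read 30.2, 30.8 and 28.6 in the controls, 6.72, 19.0 and 6.86 under BPQD and 22.5, 10.3 and 25.8 under TiO2. Its change of -1.11 ± 0.37 (adjusted p = 0.0473) lost its call without any 1 of the 3 controls, BPQD replicate 1 or 3, or TiO2 replicate 1 or 2, with adjusted p from 0.0093 to 0.118 over the 9 fits without a library. It was also lost with TPM (0.0524), with the exposed libraries as 1 group (0.0975) and without the filter on low values (0.114).

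The rises were smaller. SRP9, a protein of the signal recognition particle, had the only rise above 1, reading 40.3, 30.7 and 28.4 FPKM in the controls, 119, 50.8 and 48.8 under BPQD and 105, 108 and 44.3 under TiO2. The exposed libraries split into 3 high and 3 that lay only a little above the controls, in both materials. Its change of 1.13 ± 0.38 (limma adjusted p = 0.0464) lost its call without any 1 control, BPQD replicate 1 or 2, or TiO2 replicate 1 or 2 (adjusted p from 0.015 to 0.135 over the 9 fits), with the exposed libraries as 1 group (0.0537) and without the filter on low values (0.112). IL6, the inflammatory cytokine interleukin 6, read 1.08, 1.22 and 1.13 in the controls, 3.14, 2.76 and 2.50 under BPQD and 4.12, 3.67 and 3.77 under TiO2. Both exposures were well above the controls, the exposed mean was 2.91 times the control mean, and the log2 change was 1.0 ± 0.06 (adjusted p = 2.26e-05). AIMP1, a scaffold of the multi-tRNA-synthetase complex, read 12.1, 11.6 and 11.7 in the controls, 18.8, 19.6 and 19.8 under BPQD and 18.6, 20.1 and 20.05 under TiO2. The change was 0.68 ± 0.03 (adjusted p = 1e-05) and nearly the same under both materials.

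Among the other rises, ZNF888, a zinc finger gene, went from at most 0.683 FPKM in the controls to between 1.62 and 1.99 under exposure (0.95 ± 0.08). KNSTRN, a spindle protein, stood at 10.0 to 10.5 in the controls and between 12.9 and 25.004 under exposure, with BPQD replicate 3 and TiO2 replicate 2 lowest (0.91 ± 0.22). ECHDC1, a metabolite repair enzyme, rose by 0.63 ± 0.10. RPE, of the pentose phosphate pathway, rose by 0.71 ± 0.18 and lost its call without control replicate 1 (adjusted p = 0.0574). QPRT, an enzyme of NAD synthesis, rose by 0.65 ± 0.19, but the call was lost in 7 of the 9 fits that left out a library, those without a control, without a BPQD library or without TiO2 replicate 3 (limma adjusted p from 0.00023 to 0.0939). It was also lost without the filter on low values (0.0734). The noncoding LINC01537, the GTPase RND3 and the interferon-induced IFIT3 rose by 0.77, 0.83 and 0.68, all further under TiO2, as described below. RND3 and IFIT3 lost their calls with the exposed libraries as 1 group (adjusted p = 0.0528 and 0.0893).

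**Figure D2:**
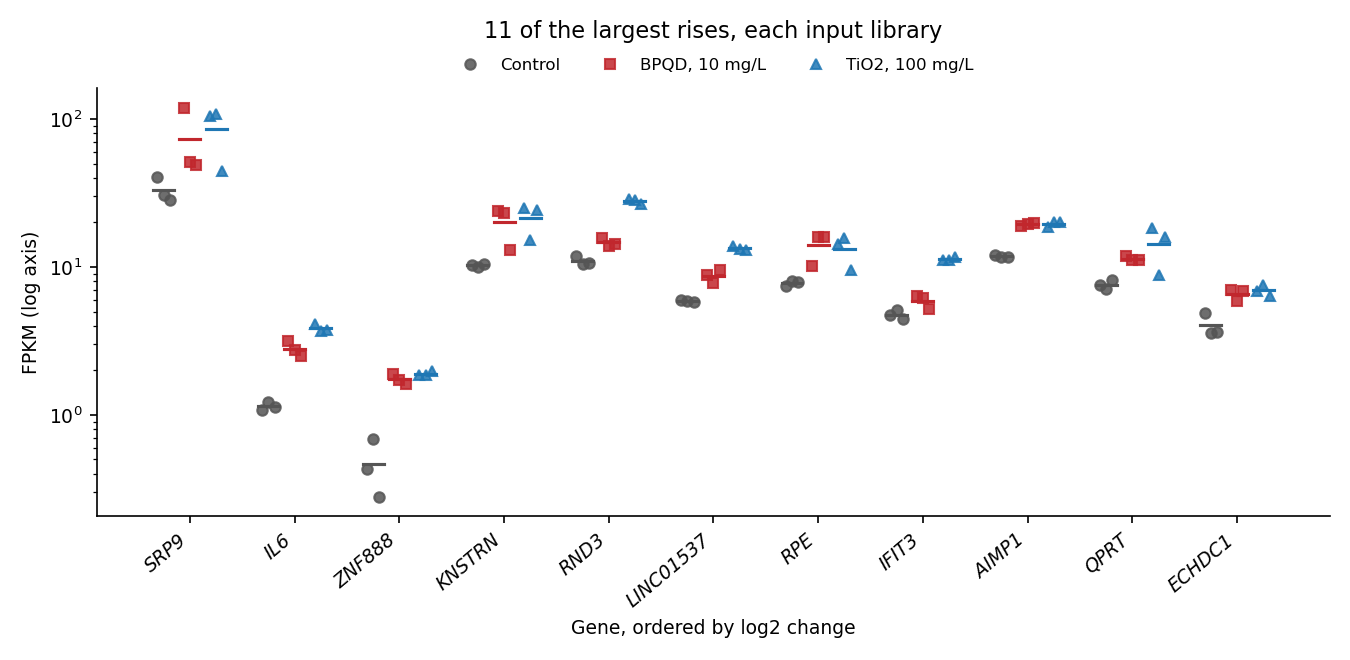
FPKM of 11 of the genes that rose most, 1 point per input library on a log axis, with a line at each group's mean (3 libraries per group). AIMP1 and IL6 have tight groups, whereas SRP9 and KNSTRN have exposed libraries both near the controls and far above them.

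The listed genes of protein synthesis split by role. Of 38 cytosolic ribosomal protein genes, 18 fell and 4 rose, with a median of -0.17. Of 29 translation initiation factors, 14 rose and 1 fell, with a median of 0.20. Neither list holds every gene of its class. All genes tested had a median of -0.02, with 12.3% rising and 15.5% falling. After rescaling to TPM, 13 ribosomal protein genes fell and 7 rose (median -0.13), and 17 initiation factors rose and none fell (median 0.23), so the medians kept their signs. Over the 9 fits that left out a library, 14 to 18 ribosomal protein genes fell and 13 to 16 initiation factors rose. The lists were chosen with earlier results of these data known. Apart from the summed share of the RNA polymerase III transcripts given above, no test of a list was made.

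The mRNA start is shown for some members of both groups, because a pyrimidine run there is the feature known to set ribosomal protein mRNAs apart. Each line gives 10 bases before and 20 bases from the annotated start (the eleventh base is the start), 5′ to 3′ on the gene's strand, from RefSeq on GRCh38.p14. Capitals mark a run of C followed by at least 4 C or T that begins within 5 bases of the start.
RPSA, chr3:39406710-39406739, plus strand: tgccgcctgtCTTTTCCgtgctacctgcag
RPS14, chr5:150449720-150449749, minus strand: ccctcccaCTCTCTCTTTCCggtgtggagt
RPL18, chr19:48619159-48619188, minus strand: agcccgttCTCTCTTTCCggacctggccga
RPL35, chr9:124861938-124861967, minus strand: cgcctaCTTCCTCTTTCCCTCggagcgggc
RPL11, chr1:23691769-23691798, plus strand: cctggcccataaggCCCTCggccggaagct
RPS6, chr9:19380217-19380246, minus strand: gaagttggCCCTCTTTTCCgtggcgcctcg
EIF4A2, chr3:186783567-186783596, plus strand: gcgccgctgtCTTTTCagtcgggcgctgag
EIF3M, chr11:32583821-32583850, plus strand: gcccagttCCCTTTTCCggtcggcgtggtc
EIF2S3, chrX:24054946-24054975, plus strand: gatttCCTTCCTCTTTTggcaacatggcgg
Of these genes RPSA, RPS14, RPL18 and RPL35 fell, and RPL11, RPS6, EIF4A2, EIF3M and EIF2S3 rose. They were picked to show both directions, and every one of them carries the run. Members without it at the single start read for each gene also moved, among them RPS29, RPL27 and RPL10 downward and RPS4X, EIF5B and EIF1AX upward. The counts per gene that follow take any annotated start of a gene, so a gene named above as without the run may be counted as carrying it. By that rule the run was found in 22 of 27 ribosomal protein genes with a promoter entry, of which 10 fell and 2 rose. Among initiation factors it was found in 12 of 23, of which 1 fell and 5 rose. It was found in 29.5% of all tested genes with an entry and in 21.1% of all 35116 promoters. Too few of either list had an entry (71.1% and 79.3%, below 80%) for the shares to be compared. The search was added after the values were seen, and a match is a description of letters, not of a working site.

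Among the ribosomal protein genes that fell, RPSA, a protein of the small subunit, read 364, 366 and 362 FPKM in the controls, 310, 313 and 310 under BPQD and 305, 302 and 309 under TiO2. All exposed libraries were below all controls by a narrow and even margin (-0.24 ± 0.01, limma adjusted p = 1.22e-05). RPL35, of the large subunit, read 828, 819 and 805 in the controls, 658, 673 and 667 under BPQD and 706, 698 and 701 under TiO2 (-0.26 ± 0.01). RPS27 fell by 0.21, RPS14 by 0.20 and RPL18 by 0.17. RPL8 had a change of -0.43 ± 0.13 (adjusted p = 0.0304), which lost its call without any 1 control, BPQD replicate 3, or TiO2 replicate 2 or 3. It was also lost with the exposed libraries as 1 group and without the filter on low values. RPLP0 and RPS19 (-0.20 and -0.19) lost their calls in 7 and 6 of the 9 fits that left out a library, those without any control or BPQD library and, for RPLP0, without TiO2 replicate 1. Both were also lost with TPM (adjusted p = 0.0852 and 0.0867), with median centring (0.0535 and 0.0561), as 1 group and without the filter on low values. The 4 that rose were RPL11, RPS4X, RPS6 and RPL5. RPL11, which can also bind the p53 regulator MDM2, read 350, 356 and 363 in the controls, 435, 417 and 440 under BPQD and 433, 421 and 435 under TiO2 (0.27 ± 0.02, adjusted p = 8.71e-05). RPS6, the target of S6 kinase, rose from 547, 543 and 539 to between 575 and 598 (0.11 ± 0.02). Ribosomal protein genes have many processed pseudogenes, so part of their reads may have been assigned elsewhere.

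Among the initiation factors, EIF2S2, the beta subunit of eIF2, rose from 93.1 to 94.6 FPKM in the controls to 119 to 122 under BPQD and 130 to 135 under TiO2 (0.43 ± 0.02, limma adjusted p = 6.27e-06). The gamma subunit EIF2S3 rose by 0.30 ± 0.02 and the alpha subunit EIF2S1 by 0.30, so the 3 subunits of eIF2, which carries the initiator tRNA, all rose. EIF4A2, an RNA helicase, read 31.3, 30.6 and 31.3 in the controls, 41.6, 41.2 and 41.6 under BPQD and 39.7, 40.1 and 39.5 under TiO2 (0.38 ± 0.02). EIF1AX, which helps find the start codon, rose by 0.39 ± 0.02, and EIF5B, which joins the ribosomal subunits, by 0.36 ± 0.03. Of the eIF3 complex, EIF3M, EIF3H, EIF3J, EIF3A and EIF3E rose, by 0.34, 0.31, 0.31, 0.31 and 0.20, and EIF3F fell by 0.10. EIF3J stood at 0.20 without control replicate 2, and EIF3F lost its call with the exposed libraries as 1 group. Cap-binding EIF4E was called at 0.17, a call lost without control replicate 1 or 3, with the exposed libraries as 1 group and without the filter on low values. The scaffold EIF4G1 did not pass the test (-0.02).

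**Figure D3:**
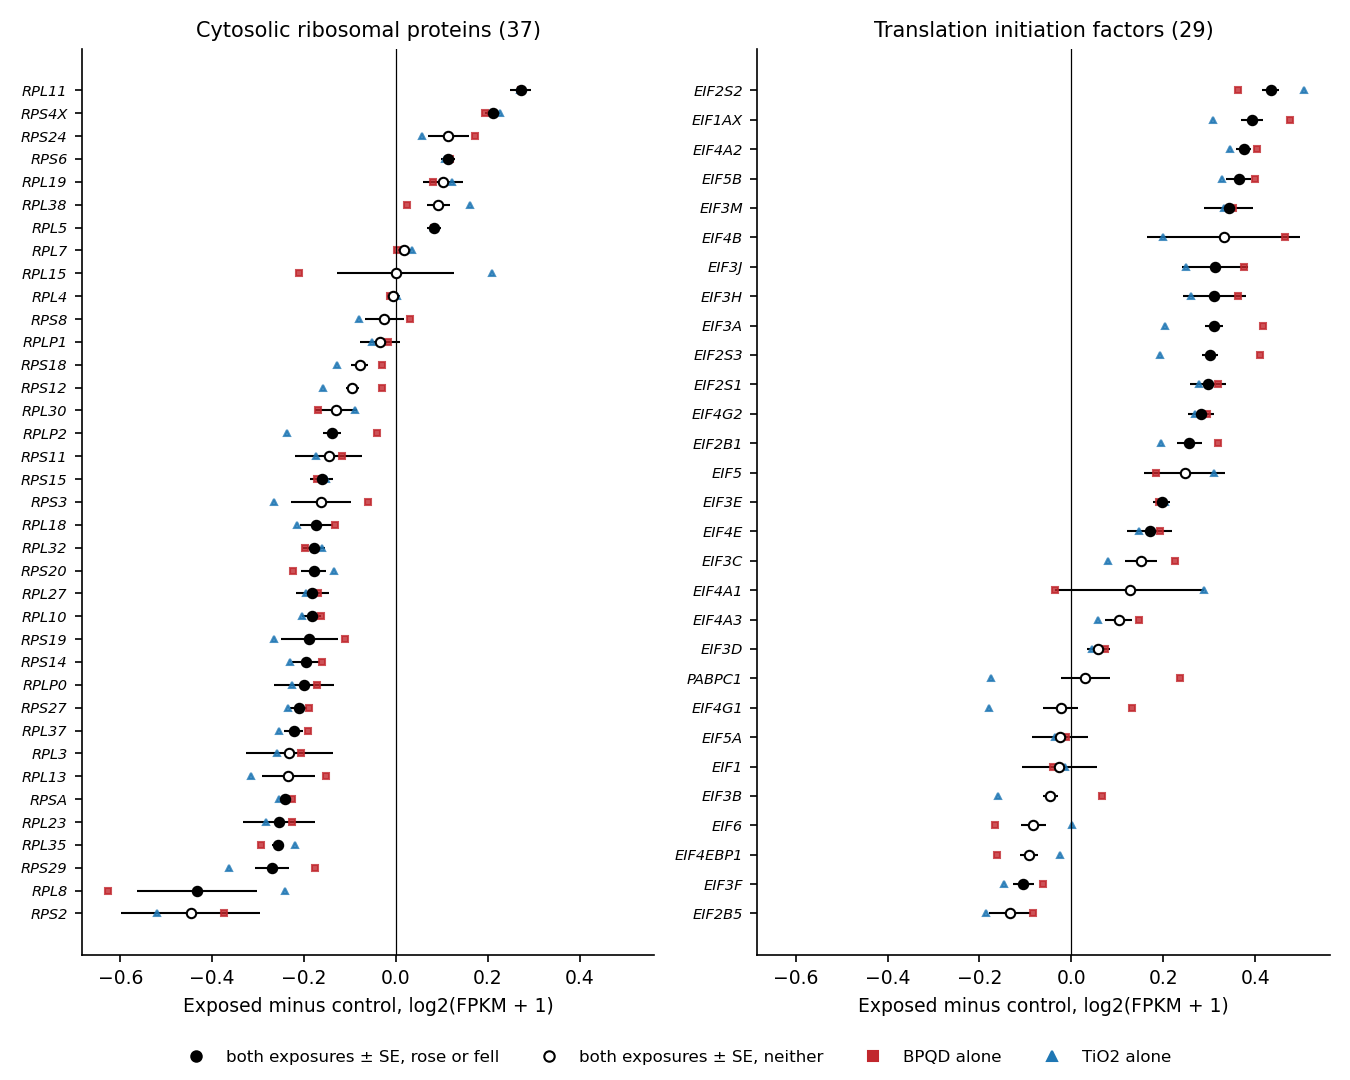
Log2(FPKM + 1) difference between exposed and control libraries for 37 of the 38 listed ribosomal protein genes (left) and the 29 listed initiation factors (right), 1 gene per line. Black circles with bars are the mean of both exposures ± SE, filled where the gene rose or fell, and red squares and blue triangles are BPQD and TiO2 alone. Most filled circles lie left of 0 among ribosomal proteins and right of 0 among initiation factors.

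Chaperone genes that moved mostly rose. The counts of chaperones and of the later lists stand beside the shares over all genes tested, 12.3% rising and 15.5% falling. Of 18 cytosolic and mitochondrial heat shock chaperones, 9 rose and 2 fell (median 0.26), and of 20 genes of the unfolded protein response, 7 rose and none fell (median 0.17). With TPM these counts were 10 and 2, and 10 and 0, and without control replicate 3, 4 of the heat shock chaperones fell. HSPA5, the main HSP70 chaperone of the endoplasmic reticulum, read 200, 197 and 197 FPKM in the controls, 273, 273 and 273 under BPQD and 281, 282 and 277 under TiO2. The exposed libraries were within a few FPKM of each other and far from the controls (0.48 ± 0.01, limma adjusted p = 7.76e-07). HSP90B1, its HSP90 partner, rose by 0.54 ± 0.04, the co-chaperone DNAJB11 by 0.27 and the stress sensor ATF6 by 0.27. In the cytosol, HSP90AA1 read 443, 438 and 438 in the controls, 550, 547 and 540 under BPQD and 621, 685 and 618 under TiO2 (0.43 ± 0.03). CCT2, a subunit of the chaperonin that folds actin and tubulin, rose by 0.44, HSPA4 by 0.41 and the mitochondrial HSPD1 by 0.37. Other members fell or were not called. HSPB1, a small heat shock protein, fell from 250, 251 and 253 to between 190 and 227 (-0.28 ± 0.02). HSPA1A stood at 28.9 in BPQD replicate 2 and 32.2 in TiO2 replicate 2 and at 199 to 252 elsewhere, and was not called (adjusted p = 0.305). It has a near-identical copy, HSPA1B, with which its reads may be shared. HSPA1B was lower under exposure, at -0.21 (limma adjusted p from 0.000172 to 0.000441 over the 9 fits that left out a library). The stress markers DDIT3 (0.34 ± 0.21, adjusted p = 0.245) and XBP1 (0.26 ± 0.24, adjusted p = 0.412) did not pass the test. Of 19 targets of ATF4, the factor of the amino acid stress response, 5 rose and 3 fell (median 0.12), among them the secreted STC2 upward (0.55 ± 0.03) and the serine synthesis enzyme PHGDH downward (-0.30 ± 0.04).

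Among 22 p53 targets, 9 fell and 1 rose, with a median of -0.15, and with TPM 6 fell and 1 rose. BTG2, an antiproliferative gene, read 12.4, 11.9 and 12.2 FPKM in the controls, 6.59, 6.55 and 6.88 under BPQD and 7.24, 7.15 and 6.55 under TiO2 (-0.75 ± 0.03, limma adjusted p = 9.32e-06). CDKN1A, the cell cycle inhibitor p21, fell from 24.4, 24.7 and 24.6 to 14.5, 14.2 and 14.3 under BPQD and 19.8, 20.8 and 20.2 under TiO2 (-0.50 ± 0.02). DDB2 of DNA damage recognition and the oxidoreductase FDXR fell by 0.41 and 0.40. GADD45A, a damage-inducible gene, rose from 6.23, 8.46 and 8.28 to between 9.52 and 13.9 (0.63 ± 0.11). MDM2, the p53 ubiquitin ligase, stood at -0.18 ± 0.06 (adjusted p = 0.0507). Of 15 BCL2 family genes, 6 fell and 1 rose (median -0.07). Besides BMF, the pro-apoptotic BAD and BOK fell by 0.43 and 0.35. The gene that rose was PMAIP1 (0.47 ± 0.16, adjusted p = 0.0499). Its call was lost in 7 of the 9 fits without a library, those without control replicate 3 or any exposed library, and its change was 0.23 without control replicate 2. The call was also lost with a pseudocount of 0.1, without the variance trend, without the filter on low values and as 1 group. With the exposed libraries as 1 group none of the 15 rose, and with TPM 3 did.

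Cell cycle and repair genes that moved mostly rose. Of 25 genes of G2 and mitosis, 9 rose and none fell (median 0.16), with TPM 14 and 0, and with the exposed libraries as 1 group 6 and 0. Over all genes tested, 12.3% rose and 15.5% fell. CCNB1, cyclin B1, stood at 64.0, 63.4 and 63.9 FPKM in the controls and between 72.7 and 76.2 under exposure (0.22 ± 0.01, limma adjusted p = 3.93e-05). CCNA2, cyclin A2, rose by 0.28 and HMMR, a spindle assembly factor, by 0.29. The DNA repair list had 7 rises and no falls among 25 genes (median 0.16), including the recombination genes XRCC2 (0.40 ± 0.06) and RAD51C (0.34 ± 0.05). Of 29 genes of G1/S and replication, 7 rose and 3 fell (median -0.02), and 5 fell without control replicate 1 or TiO2 replicate 2. The helicase subunit MCM6 rose by 0.33 and the transcription factor E2F1 fell by 0.32. Of 44 spliceosomal, hnRNP and SR protein genes, 11 rose and 4 fell (median 0.05), 7 rose as 1 group and 2 fell with TPM, with SRSF2 at 0.50 ± 0.10 and SF3A3 at 0.39 ± 0.02.

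Of 32 nuclear genes of oxidative phosphorylation, 13 fell and none rose (median -0.13), and with TPM 13 fell and 3 rose. COX5B, of cytochrome oxidase, read 112, 113 and 111 FPKM in the controls, 81.5, 84.2 and 85.9 under BPQD and 103, 97.5 and 100.5 under TiO2 (-0.29 ± 0.02, limma adjusted p = 9.05e-05). CYC1 and UQCRC1 of complex III fell by 0.26 and 0.25, and NDUFA4 by 0.25. None of the 13 mRNAs encoded by mitochondrial DNA rose or fell, although limma called 4 of them higher. MT-CO2 and MT-ND2 were listed at 0 in control replicate 1 and at 47.0 and 49.9, and 22.0 and 21.5, in the other controls, so that 0 may be a failed estimate. Without control replicate 3, 4 of the 13 rose, and without TiO2 replicate 3, 3 rose. Of 23 glycolysis genes, 1 rose and 3 fell (median -0.12), with the phosphofructokinase PFKL at -0.30 ± 0.05 and the lactate dehydrogenase subunit LDHB at 0.23 ± 0.05. The falling share of the glycolysis genes was close to that over all genes tested (15.5%).

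Among 19 selenoprotein genes, 6 fell and 1 rose (median -0.21). SELENOW, a small selenoprotein, read 8.97, 8.59 and 8.64 FPKM in the controls, 4.03, 4.26 and 3.98 under BPQD and 6.0004, 6.04 and 6.20 under TiO2 (-0.70 ± 0.03, limma adjusted p = 5.3e-06). SELENON fell by 0.42 and the deiodinase DIO2 by 0.34. GPX4, which protects membranes from lipid peroxides, fell from 77.5, 79.4 and 80.9 to 48.1, 46.5 and 48.6 under BPQD and 72.5, 68.8 and 74.4 under TiO2. Its change of -0.43 ± 0.03 was not called with the exposed libraries as 1 group (adjusted p = 0.109). Of 24 targets of NRF2, the regulator of antioxidant genes, 6 rose and 7 fell (median 0.02). NFE2L2, the NRF2 gene, rose from 13.5, 13.8 and 13.3 to between 16.6 and 18.8 (0.34 ± 0.02), the cystine transporter SLC7A11 rose by 0.50 and the epoxide hydrolase EPHX1 fell by 0.39. Of 13 iron genes 1 fell and none rose as deposited, and 3 rose with TPM.

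Inflammatory genes were few in the tested set. Of 12 NF-kB targets and cytokines, 4 rose and 1 fell (median 0.14). Besides IL6, the feedback inhibitor TNFAIP3 stood at 2.64, 2.73 and 2.94 FPKM in the controls, 3.67, 3.41 and 3.27 under BPQD and 4.41, 4.57 and 4.28 under TiO2 (0.38 ± 0.04, limma adjusted p = 0.000303). The adhesion molecule ICAM1 rose by 0.35 ± 0.03. NFKBIA, the inhibitor of NF-kB, fell from 15.9, 15.0 and 15.1 to 9.96, 10.6 and 9.42 under BPQD and 12.2, 11.5 and 12.8 under TiO2 (-0.44 ± 0.05). Of 18 interferon-stimulated genes, 5 rose and 2 fell (median 0.10), and as 1 group 3 rose, with IFIT2 at 0.50 ± 0.05 and IFIT5 at 0.26 ± 0.06. IFI6 fell by 0.45, a call lost without control replicate 3. Of 12 immediate early genes, JUNB fell (-0.52 ± 0.02) and FOSL1 rose (0.60 ± 0.09), both AP-1 subunits.

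Genes of endocytosis, lysosomes and the cell surface were counted beside the shares over all genes tested, of which 12.3% rose and 15.5% fell. Of 21 endocytosis genes, 7 fell and 3 rose (median -0.09), and with the exposed libraries as 1 group 7 fell and 1 rose. The clathrin adaptor subunits AP2A1 and AP2A2 fell by 0.36 and 0.30, and CAVIN1, a coat protein of caveolae, fell from 145, 147 and 147 FPKM to 106, 108 and 109 under BPQD and 126, 122 and 123 under TiO2 (-0.34 ± 0.02, limma adjusted p = 9.39e-06). Of 27 genes of lysosomes and autophagy, 5 rose and 4 fell (median 0.11), close to the shares over all genes, and as 1 group 2 rose. ULK1, the kinase that starts autophagy, read 9.89, 9.99 and 9.52 in the controls, 6.02, 5.92 and 6.08 under BPQD and 5.74, 5.69 and 5.70 under TiO2 (-0.65 ± 0.02, adjusted p = 2.94e-06), and LAMP2, a lysosomal membrane protein, rose by 0.38 ± 0.03. Of 27 matrix and integrin genes, 9 fell and 2 rose (median -0.08). COL5A1, a fibrillar collagen, fell from 61.7, 61.2 and 63.5 to 41.4, 42.7 and 42.0 under BPQD and 39.1, 38.6 and 39.5 under TiO2 (-0.60 ± 0.02). ITGB1, the beta-1 integrin, rose from 62.9, 61.4 and 62.5 to between 81.3 and 99.0 (0.51 ± 0.05).

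The m6A machinery, which the study's question concerns, changed modestly. Of 12 writers 5 rose and 1 fell (median 0.17), of 15 readers 5 rose and none fell (median 0.14), and of the 2 erasers ALKBH5 fell. With TPM 6 writers rose, and the fits with 1 library left out had 4 to 7 writers rising. METTL14, the partner of the methyltransferase, read 1.56, 1.54 and 1.59 FPKM in the controls, 2.39, 3.18 and 2.73 under BPQD and 1.91, 2.66 and 1.87 under TiO2 (0.42 ± 0.09, limma adjusted p = 0.00918). METTL3, the catalytic subunit, was called at 0.18 ± 0.05, a call lost without control replicate 1 or 2 (0.0674 and 0.0633). PCIF1, which methylates adenosine beside the cap, fell by 0.38 ± 0.03. YTHDC1, the nuclear reader, rose from 10.9, 9.41 and 8.98 to 13.8, 15.9 and 16.3 under BPQD and 11.9, 12.2 and 11.97 under TiO2 (0.44 ± 0.07, adjusted p = 0.00152), and IGF2BP3 rose by 0.26. ALKBH5 fell from 32.8, 32.8 and 34.9 to between 28.5 and 29.7 (-0.20 ± 0.03, adjusted p = 0.000573). FTO, the other eraser, was not called (-0.13 ± 0.23, adjusted p = 0.696).

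**Figure D4:**
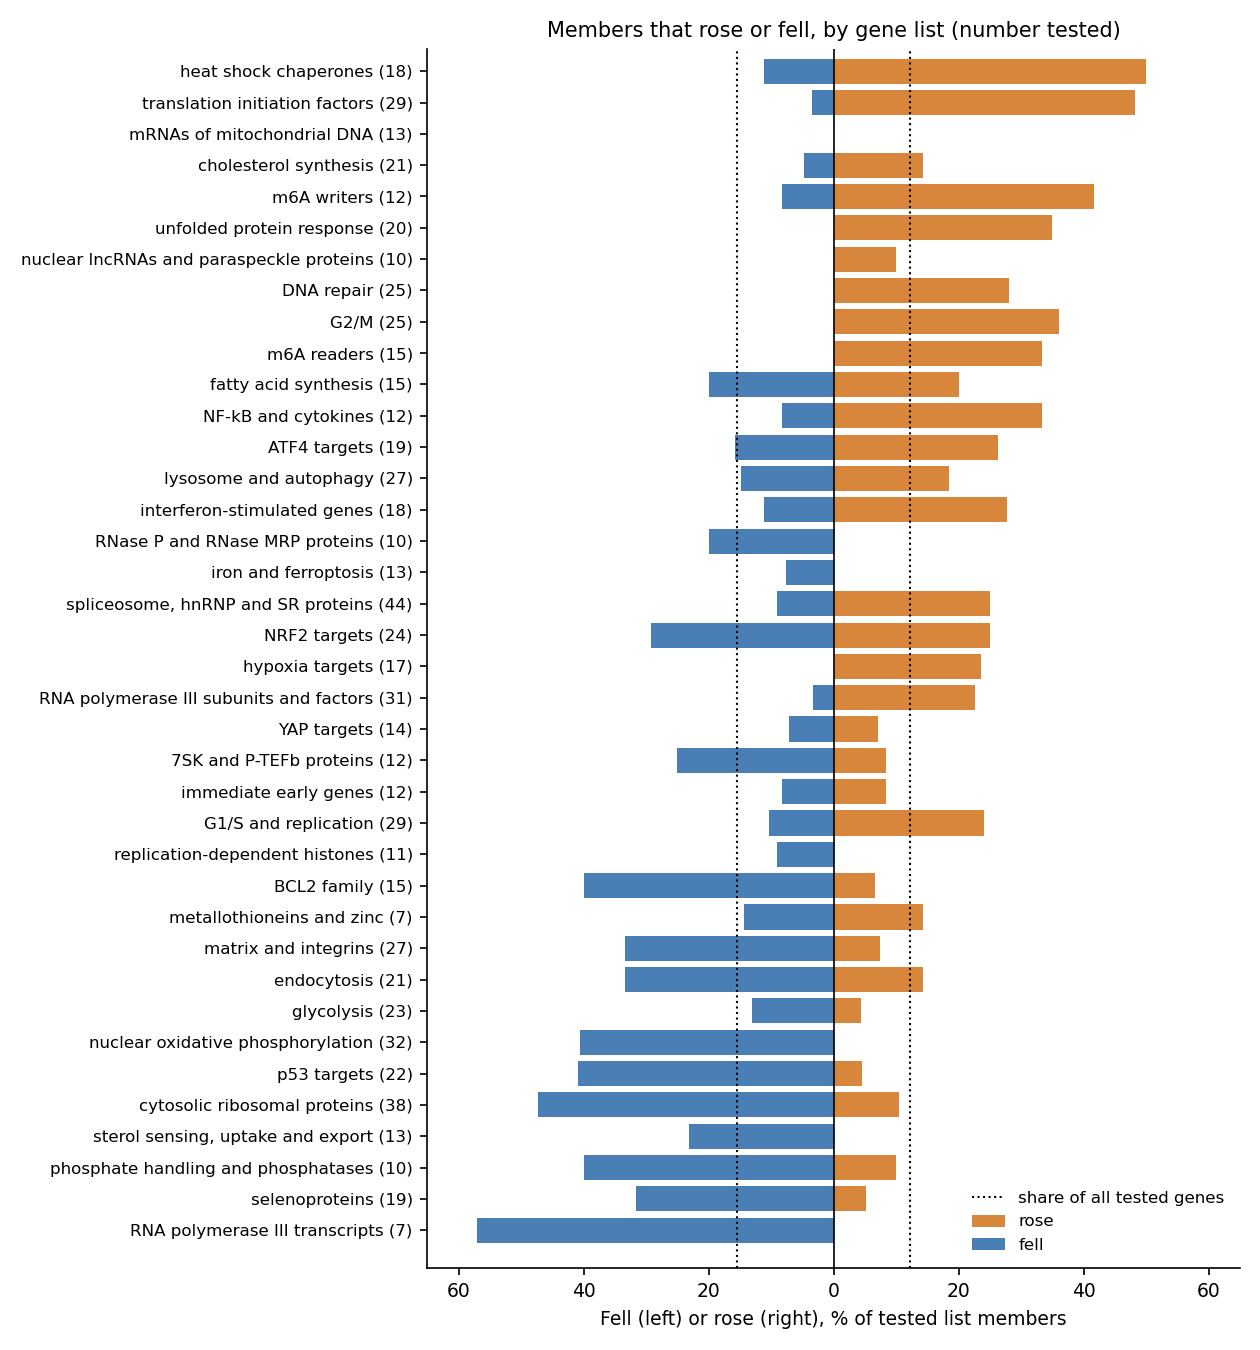
Share of the tested members of each gene list (number tested in brackets) that rose (right, orange) or fell (left, blue) under both exposures. Dotted lines mark the shares over all tested genes, 12.3% rising and 15.5% falling, and lists are ordered by their median change. RNA polymerase III transcripts, selenoproteins and ribosomal proteins reach left of the lower line, and initiation factors and chaperones right of the upper one.

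Membership asks only that both materials lie on 1 side of the controls, so the size of the change could still differ between them. The contrast of BPQD with TiO2 in the same model called 4596 of all 12224 genes (37.6%). Among the 3404 genes that rose or fell, 1299 were called (38.2%), and these were 28.3% of the 4596. The contrast reads the same exposed libraries that chose the members, and the choice leaves out genes with the materials on opposite sides of the controls, so the members' share is a description and is not set against that of all genes. Of the 1507 that rose, 564 differed, 338 of them with the larger rise under BPQD and 226 under TiO2. Of the 1897 that fell, 735 differed, 474 with the larger fall under BPQD and 261 under TiO2. The materials differed by more than the pooled change itself in 319 of the genes. The median size of the difference was 0.09 for genes that rose and 0.11 for those that fell. BPQD and TiO2 share their controls, so each material's own change is given side by side below and not as 2 independent results.

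Some changes were nearly equal under both materials. The rule for naming took genes with a pooled change of at least 0.5 and a mean of at least 5 FPKM. PC, pyruvate carboxylase, read 11.8, 11.9 and 12.4 FPKM in the controls, 8.19, 7.95 and 8.39 under BPQD and 8.33, 8.02 and 8.20 under TiO2, a change of -0.51 with each. OBSL1, a cytoskeletal adaptor, changed by -0.54 with each and HOXC13, a homeobox factor, by -0.52 and -0.53. UBLCP1, a phosphatase of the proteasome, changed by 0.51 and 0.50, and AIMP1 by 0.67 and 0.68. The limma adjusted p of the difference was 0.845 or higher for these 5, and their standard errors of the difference were 0.03 to 0.06. A p of that size does not show that the exposures acted alike.

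Of the 5 genes that differed most by the same rule, SQLE, RND3 and IFIT3 changed further under TiO2, and C11orf86 and TAX1BP3 further under BPQD. SQLE, squalene epoxidase of sterol synthesis, read 6.11, 5.71 and 6.07 FPKM in the controls, 7.02, 6.37 and 6.97 under BPQD and 13.6, 14.1 and 13.6 under TiO2. Its difference was -0.92 ± 0.04 (BPQD minus TiO2, limma adjusted p = 5.7e-06), and its pooled call was lost with the exposed libraries as 1 group (adjusted p = 0.136). RND3 read 11.9, 10.5 and 10.6 in the controls, 15.7, 13.9 and 14.4 under BPQD and 29.0, 28.2 and 26.6 under TiO2 (difference -0.88 ± 0.06). IFIT3 read 4.74, 5.12 and 4.42, then 6.31, 6.15 and 5.18, then 11.2, 11.2 and 11.6 (difference -0.85 ± 0.07). C11orf86, an uncharacterised gene, read 58.9, 57.6 and 56.1 in the controls, 28.7, 25.1 and 26.7 under BPQD and 47.5, 44.8 and 48.6 under TiO2 (difference -0.79 ± 0.05), with a pooled call lost as 1 group (0.0685). TAX1BP3 was among the 5 largest by size (-0.85 ± 0.43), but this difference was not called (adjusted p = 0.17). Of the polymerase III transcripts, RPPH1 fell by 2.87 under BPQD and by 2.50 under TiO2 (difference adjusted p = 0.0431) and BCYRN1 by 0.88 and 1.63 (0.0309). RN7SK and RMRP had differences that were not called (adjusted p = 0.0874 and 0.372).

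**Figure D5:**
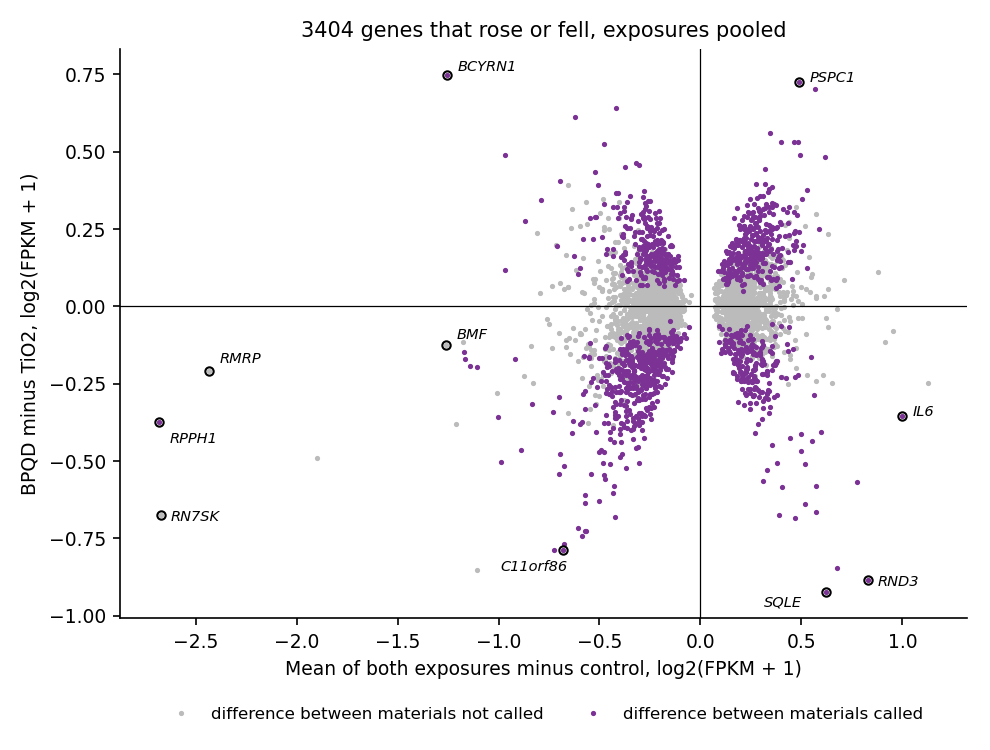
Each point is 1 of the 3404 genes that rose or fell, with the mean change of both exposures against control on the horizontal axis and BPQD minus TiO2 on the vertical axis, both in log2(FPKM + 1). Purple marks the 1299 genes whose difference between materials was called. RPPH1, RN7SK and RMRP lie far left, at -0.37, -0.67 and -0.21 on the vertical axis. SQLE and RND3 lie low on the right.

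Cholesterol synthesis genes had a pooled median that lay between opposite medians of the materials. Of 21 genes, 3 rose and 1 fell, with a pooled median of 0.17, a median of -0.16 under BPQD and of 0.48 under TiO2. Between the materials, 18 of the 21 differed. The shares over all genes tested were 12.3% rising, 15.5% falling and 37.6% differing between the materials. With the exposed libraries as 1 group, none rose and 1 fell, and without control replicate 3 or BPQD replicate 2, 5 rose. HMGCS1, an early enzyme of the pathway, read 13.6, 13.1 and 13.1 FPKM in the controls, 13.98, 12.4 and 14.5 under BPQD and 35.3, 33.1 and 36.1 under TiO2, so that BPQD overlapped the controls. ACAT2, which makes acetoacetyl-CoA, lay below the controls (13.6, 14.3 and 14.5) under BPQD (11.2, 10.96 and 11.5) and above them under TiO2 (38.8, 38.7 and 38.6). SQLE, CYP51A1 and SC5D were the members that rose, and all 3 calls were lost as 1 group. The fall of PMVK (-0.26 ± 0.03) was kept. SREBF1, a sterol-regulated transcription factor, fell from 6.37, 6.41 and 6.68 to between 4.65 and 5.03 in both (-0.36 ± 0.03, limma adjusted p = 9.19e-05), and SCAP, which escorts it, fell by 0.27.

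Genes with the materials on different sides of the controls are not members. All BPQD libraries lay above and all TiO2 libraries below the controls in 465 genes (3.80%), and the reverse in 381 (3.12%). The following were chosen after their values were seen. SPINK13, a protease inhibitor, read 5.15, 5.56 and 5.47 FPKM in the controls, 8.98, 8.42 and 8.79 under BPQD and 3.10, 3.75 and 3.26 under TiO2. PSCA, a surface antigen, read 72.0, 68.8 and 70.5, then 37.1, 37.1 and 38.5, then 99.3, 96.5 and 96.2. TGM2, tissue transglutaminase, read 9.53, 9.75 and 9.69, then 6.12, 6.16 and 6.03, then 16.7, 15.5 and 16.8. In a pooled comparison such opposite changes partly cancel, leaving a log2 change of -0.21 for PSCA and 0.06 for TGM2. PSCA was still called in that comparison (limma adjusted p = 0.000249), and TGM2 was not. A pooled call alone therefore does not show that both materials lay on the same side of the controls.

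Genes that rose and genes that fell differed in length. The median span from start to end of the gene was 42.8 kb for those that rose, 18.8 kb for those that fell and 25.8 kb for all tested. Across 5 equal groups from short to long genes, 4.13%, 9.57%, 13.95%, 17.5% and 16.4% rose and 15.6%, 20.98%, 18.5%, 11.5% and 10.9% fell. The shortest group ended at 6.08 kb and the longest began at 79.4 kb. With TPM the shares were 5.36%, 12.02%, 17.3%, 20.98% and 20.4% rising and 12.4%, 17.5%, 14.6%, 9.53% and 8.71% falling, the same order at both ends. The share moving either way also climbed with the level of the gene, from 3.35% rising and 10.1% falling in the lowest of 5 groups by mean FPKM to 20.8% and 20.9% in the highest. Precision at low FPKM and the length of the gene move together with these shares, and their part was not tested. Of 10235 protein-coding genes 1417 rose and 1729 fell, of 434 long noncoding RNAs 27 and 31, of 644 pseudogenes 28 and 69 and of 52 microRNA loci 1 and 1. All genes tested together had 12.3% rising and 15.5% falling.

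The peaks of m6A are another readout of the same cells. In the authors' deposited table for BPQD, 52.7% of the genes that rose, 59.6% of those that fell and 53.6% of all tested had at least 1 listed peak. In the authors' deposited table for TiO2 the shares were 47.1%, 56.5% and 50.3%. A peak with lower enrichment, at the unadjusted p under 0.05 of the authors' deposited table, was listed for 23.2% of the genes that rose, 30.9% of those that fell and 22.2% of all under BPQD. Under TiO2 the shares in the authors' deposited table were 17.9%, 24.5% and 17.5%. A peak with higher enrichment was listed in the authors' deposited table for 26.5%, 22.5% and 26.5% under BPQD and for 24.6%, 24.99% and 26.5% under TiO2, in the same order. Peak enrichment is measured against the same input libraries, so these shares are given without a test.

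The rule has an edge. REXO5, an exonuclease, was the last gene inside it upward, with its highest control and TiO2 replicate 3 both at 2.61 FPKM after rounding. It was called at 0.32 ± 0.05, a call lost as 1 group (adjusted p = 0.131). RPL36A-HNRNPH2, a read-through of 2 genes, was just outside, listed at 0 in the 3 controls and in TiO2 replicate 2 but at 39.8, 38.1 and 2.34 under BPQD and 3.50 and 30.5 in the other TiO2 libraries. Downward, GATB, of mitochondrial translation, was just inside, with its lowest control and TiO2 replicate 3 both at 3.64. Its call (limma adjusted p = 0.0414) was lost in 7 of the 9 fits without a library (0.0198 to 0.128), with TPM (0.0834), with median centring (0.0547), as 1 group (0.0921) and without the filter (0.0994). ZSWIM4, a zinc finger gene, was just outside, with control replicate 1 and TiO2 replicate 1 both at 2.08. Of the 3578 genes, 174 were separated in this way without passing the test.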

How the data were processed

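Input RNA of 3 untreated, 3 BPQD and 3 TiO2 samples was analysed, grouped by title. The authors deposited FPKM values, per the file headers, for 36576 genes, and per the submitters' processing notes HISAT2 (no version) and StringTie 1.3.0 were used. The notes list the build mm10, but the gene IDs are human: of 27043 symbols found in RefSeq on GRCh38.p14, 99.996% lay on the same chromosome, so coordinates are read as GRCh38. Names were found for 36346 IDs. The authors also deposited tables of m6A peaks with a log2 fold change and a p-value per peak, per the file headers, and the peak caller is not given in the sources used here. In those tables, 12 repeated FPKM columns were not used.

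In R 4.3.3, limma 3.58.1 fitted 3 group means to log2(FPKM + 1) of the 12224 genes that averaged 1 FPKM or more, with a variance trend. The mean of both exposures was compared with control, and BPQD with TiO2, two-sided, at a Benjamini-Hochberg adjusted p under 0.05 over all genes. Per library, sums and shares were compared by an exact permutation test. The fit was tested on simulated data. Python 3.11.15, pandas 2.3.3, scipy 1.17.1 and matplotlib 3.10.9 made the summaries.

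Genes named were the 12 largest rises and falls with a symbol, up to 4 moved members with the largest change per list, the 5 largest and 5 smallest differences between materials, the genes at the edge of the rule, and members the text turns on. Genes outside this are said to be so, and a few genes the rule takes are not reported here. The members and lists were chosen with earlier results of these data known. Alternatives tried were a pseudocount of 0.1, no filter, a minimum of 5 FPKM, TPM, median centring, no trend, the replicate number as a block, both exposures as 1 group, and each library left out. Depth is unknown, so no count model and no counting interval was possible, and precision rests on 3 libraries per group.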

Additional observations from a re-analysis of the deposited data

Results flagged for a closer look

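Among the genes named in the report and in the gene lists that rose or fell under both exposures, 84 changed by a different amount under BPQD and TiO2 by a test of the difference itself (limma, BPQD minus TiO2, adjusted p under 0.05 over all 12224 genes). The values in brackets are that difference in log2(FPKM + 1), and the doses of the materials were not the same.

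Genes that rose further under TiO2 by 0.3 or more were SQLE (-0.92), RND3 (-0.88), IFIT3 (-0.85), CYP51A1 (-0.67), LINC01537 (-0.57), SQSTM1 (-0.56), IFIT2 (-0.47), FOSL1 (-0.41), SC5D (-0.38), IL6 (-0.36), ICAM1 (-0.32) and P4HA1 (-0.31). Those that did so by less were TNFAIP3 (-0.29), HSP90AA1 (-0.23), HIF1A (-0.21), PPA1 (-0.20), DNAJB11 (-0.19), SNAPC1 (-0.18), LAMP2 (-0.18), STC2 (-0.16), EIF2S2 (-0.14), ELL2 (-0.12) and CCT2 (-0.07).

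Over all genes that rose and differed, named or not, 338 rose further under BPQD and 226 under TiO2. The named genes that rose further under BPQD by 0.2 or more were PSPC1 (0.72), HNRNPA1 (0.53), SLC7A11 (0.35), YTHDC1 (0.32), HNRNPA2B1 (0.29), HMMR (0.28), ZCCHC4 (0.21) and EIF3A (0.21). By less they were CCNA2 (0.19), MCM6 (0.17), EIF1AX (0.17), IGF2BP3 (0.15), NFE2L2 (0.11), HSPD1 (0.09), SF3A3 (0.07) and EIF4A2 (0.06).

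Genes that fell further under BPQD by 0.3 or more were C11orf86 (-0.79), AKR1C3 (-0.63), GPX4 (-0.58), ALPP (-0.51), ALPG (-0.50), SELENOW (-0.48), CDKN1A (-0.47), HEXIM1 (-0.43), JUNB (-0.41), RPPH1 (-0.37), SCARA5 (-0.36) and BAD (-0.32). Between 0.2 and 0.3 stood MAF1 (-0.27), COX5B (-0.26), SELENON (-0.26), NFKBIA (-0.26), MUC1 (-0.26), KRT7 (-0.25), BOK (-0.24), PDGFRB (-0.24), PCIF1 (-0.24), KRT18 (-0.23), POP7 (-0.21), CDK9 (-0.21) and CAVIN1 (-0.20). The smallest differences of this kind were those of PTGS1 (-0.19), CYC1 (-0.18), RPP25 (-0.17), AP2A2 (-0.16), EPHX1 (-0.15), GAPDH (-0.15), DIO2 (-0.13), NDUFA4 (-0.12), UQCRC1 (-0.11), AP2A1 (-0.10) and MT1E (-0.10).

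Genes that fell further under TiO2 were BCYRN1 (0.75), LAMB2 (0.37), ABCA3 (0.26), AMOTL1 (0.22), COL1A1 (0.22), PMVK (0.20), RPS29 (0.19), ALDH3A1 (0.17) and COL5A1 (0.10). BCYRN1 differed here from RPPH1, which fell further under BPQD. BCYRN1 read 85.5, 117 and 59.3 FPKM under BPQD and 44.4, 55.3 and 49.8 under TiO2, with no overlap between the materials.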

How the results depend on the processing

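Of 285 named genes, 216 kept their direction and their side of the threshold in every setting tried, and no result reversed. The choice that mattered most was fitting the 6 exposed libraries as 1 group, which puts the difference between the materials into the spread: it called 2616 genes in place of 5106, and 58 named genes lost their call. A minimum of 5 FPKM tested fewer genes: it called 3480 against control and 2832 between BPQD and TiO2 in place of 4596, and 2408 had groups that did not overlap. In the other settings these counts were 4661 to 5142, 4150 to 5571 and 3564 to 4394. With 1 library left out, they were 4234 to 4897, 3923 to 4456 and 3769 to 4267. The replicate numbers did not pair the samples (correlations of -0.083 to 0.073 between libraries with the same number), and with the replicate number as a block (the replicate block fit) 4661 genes were called against control and 4150 between the materials, with 8 named genes losing their call, among them TAX1BP3, GATB, RPLP0, SLC39A10 and PMAIP1. Removing the filter on low values cost 20 named genes their call, TPM 7 and median centring 4. Depth is unknown, and with 3 libraries per group the exact permutation test cannot go below 0.0238.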

Other observations

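The lists here also stand beside the shares over all genes tested, 12.3% rising and 15.5% falling. Of 17 hypoxia targets, 4 rose and none fell (median 0.02), and as 1 group 2 rose. Among them was EPAS1, the hypoxia-inducible transcription factor HIF-2 alpha, which read 34.1, 32.4 and 33.2 FPKM in the controls, 44.0, 44.1 and 43.6 under BPQD and 45.0, 46.0 and 45.1 under TiO2 (0.42 ± 0.02, limma adjusted p = 1e-05). HIF1A and P4HA1 rose by 0.20 and 0.28, and both calls were lost with the exposed libraries as 1 group. Of 15 fatty acid synthesis genes, 3 rose and 3 fell (median 0.14), and 5 rose with TPM, with the acyl-CoA synthetase ACSL3 at 0.44 ± 0.08 and the desaturase FADS2 at -0.31 ± 0.07. Of 14 YAP targets 1 rose and 1 fell (median -0.01; 3 rose with TPM), and of 11 replication-dependent histone genes H2BC5 fell (-0.28 ± 0.04). Of 7 metallothionein and zinc genes, MT1E fell by 0.13 and SLC39A10 rose by 0.13, a call lost without control replicate 2 or 3, without the filter on low values and as 1 group. MT2A, the most abundant metallothionein here, read 175, 178 and 176 in the controls, 130, 132 and 130 under BPQD and 206, 198 and 201 under TiO2, and so lay on opposite sides of the controls.

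Of 10 nuclear long noncoding RNAs and paraspeckle proteins, 1 rose (median 0.17). It was PSPC1, a paraspeckle protein, at 9.23, 9.14 and 9.16 FPKM in the controls, 18.1, 17.3 and 16.7 under BPQD and 9.30, 10.3 and 10.8 under TiO2. Its call was lost with the exposed libraries as 1 group. NEAT1, the RNA that builds paraspeckles, read 3.12, 4.25 and 3.43 in the controls, 9.002, 13.3 and 14.4 under BPQD and 3.01, 2.52 and 6.92 under TiO2, so that only the BPQD libraries stood clear of the controls. Of 10 phosphate handling genes, 4 fell and 1 rose (median -0.18), the rise being that of the pyrophosphatase PPA1 (0.23 ± 0.02). Of 13 genes of sterol sensing, uptake and export, 3 fell and none rose (median -0.17). Of the 6 A549 markers tested, 5 fell, among them KRT18 by 0.40, KRT7 by 0.36, ALDH3A1 by 0.47 and NQO1 by 0.19. The fibroblast markers PDGFRB and COL1A1 fell by 0.49 and 0.53, both from about 3 FPKM in the controls.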
